A study of Mus musculus with 6 samples.

Results

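The cadherins and protocadherins, a superfamily of calcium-dependent adhesion proteins, were compared between mouse embryos that lacked Fz7 alone and embryos that lacked both Fz2 and Fz7. Members were the genes with a symbol of the form Cdh plus a number, without the endothelial gene Cdh5, and the genes whose symbol starts with Pcdh. Only probe sets annotated with a single gene symbol were used, and where a gene had several, the one with the highest average signal was used. The rule found 55 genes among 18193, of which 20 were cadherins and 35 were protocadherins. No filter on low values was applied, so all 55 were tested. Cdh12, Cdh24 and Pcdh21 were not analysed here.

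Both groups were whole embryos at embryonic day 8.5 on a mixed C57BL6/129 background, with the sexes mixed. The single knockout group was Fz2+/+; Fz7-/- and the double knockout group was Fz2-/-; Fz7-/-, with 3 arrays each, called replicates 1 to 3. Loss of Fz7 was thus shared by all 6 arrays, and wild-type embryos or embryos lacking Fz2 alone were not analysed here. Fz2 and Fz7 (gene symbols Fzd2 and Fzd7) encode Frizzled receptors for Wnt ligands. The design asks what loss of Fz2 adds to loss of Fz7. Neither the number of embryos per sample nor their litters is given in the labels, so the p-values speak of sample-to-sample spread, which may be technical. In whole embryos, fewer cells of a type and less RNA per cell cannot be told apart.

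Classical cadherins bind their like on a neighbouring cell, and their cytoplasmic tails bind catenins that connect to actin. Beta-catenin serves both in this complex and as the effector of canonical Wnt signalling. At gastrulation, cells leaving the epithelial layer replace E-cadherin with N-cadherin, and later the neural tube, neural crest, somites and vessels each take on their own cadherins. Protocadherins lack the classical catenin-binding tail. The delta protocadherins are solitary genes used in somite formation and in the nervous system, whereas the alpha, beta and gamma protocadherins lie in tandem clusters from which neurons choose single promoters.

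The labels were first checked against the array values. On the log2 scale, Fzd2 was at 9.86, 9.99 and 10.01 with Fz2 intact and at 7.30, 7.69 and 7.63 with Fz2 deleted. Fzd7, deleted in both groups, gave no such check. Double knockout replicate 1 stood apart over all genes, with correlations of 0.9865 to 0.9895 to the other 5 arrays. It read high for 5 of 5 visceral endoderm markers, whose mean log2 level was 12.13 against 9.13 and 9.31 in the other two double knockout arrays and 9.15 to 9.65 in the single knockout. Placental markers stood at 6.60 in it against 3.80 to 4.15 in the other 5 arrays, and 3 of the 4 (Cts7, Prl7a1 and Prl5a1, not Tpbpa) were above every other array. Primitive red cell markers stood at 5.21 in it and at 8.49 in double knockout replicate 3, against 11.25 to 11.84 in the other 4. Markers of neural tissue, paraxial mesoderm, heart, endothelium and primitive red cells had none that read below the array median on all 6 arrays. Values without replicate 1 are given beside the results that turn on it.

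No cadherin or protocadherin passed the test, while 5 lay lower and 1 higher in every double knockout array. By limma with Benjamini-Hochberg adjustment over all 18193 genes, 0 of 55 members passed an adjusted p of 0.05. Among all genes 1 passed, Fzd2 itself, or 0.0055%. The smallest adjusted p of a member was 0.872. An unadjusted p under 0.05 was reached by 5 of the 55 members, a larger share than the 4.96% of all genes. With so few members this is not read as a result about them. The 5 were Cdh19, Cdh22, Pcdh17 and Pcdh18, which were lower, and Cdh13, which was higher. Groups did not overlap for those 5 and for Pcdh8. The 5 lower of 55 members are a larger share than the background of 6.6% of all genes, and the 1 higher member a smaller share than its 4.85%. As a share, 10.9% of the members had groups that did not overlap in either direction, so on this measure the family as a whole stood near the background.

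By sign, 30 members were lower and 25 higher, which is 54.5% lower against 53.8% of all genes. The median log2 difference, double minus single knockout, was -0.01 over the members and -0.01 over all genes. It was -0.05 over the 20 cadherins and -0.01 over the 35 protocadherins. The typical size of a difference, taken without its sign, was 0.15 for cadherins, 0.085 for protocadherins and 0.07 for all genes. Without double knockout replicate 1, 31 members were lower and 24 higher, and 0 passed. An unadjusted p under 0.05 was then reached by 6 of the 55, a larger share than the 6.67% of all genes.

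**Figure D1:**
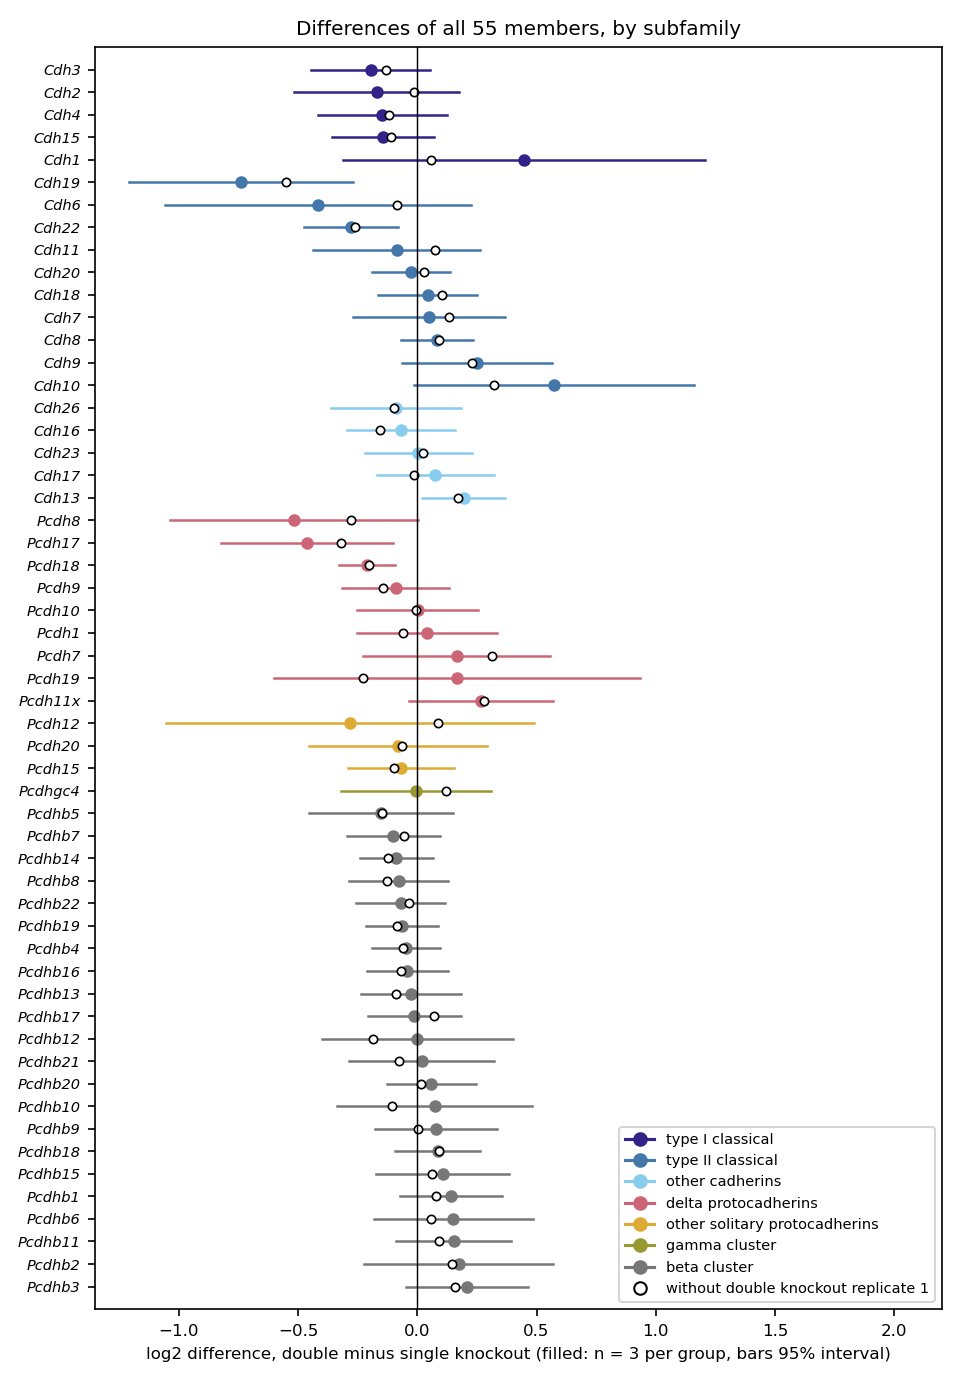
Log2 difference (double minus single knockout) of each of the 55 members, ordered by subfamily. Filled points are all 6 arrays with 95% intervals, and open points leave out double knockout replicate 1. Open points lie nearer 0 than filled ones for Cdh1, Cdh6 and Pcdh8, and the interval of most members spans 0.

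Of the 4 delta protocadherins that were lower, Pcdh8, Pcdh17 and Pcdh18 had groups that did not overlap, and these 3 were picked out after their values were seen. Their promoters are shown because these delta protocadherins lay lower together in all 3 double knockout arrays. The type II cadherins Cdh19 and Cdh22 did so too, but their promoters are not shown. The windows run from 250 bases before to 50 bases after the gene start, 5′ to 3′ on the gene's strand, from RefSeq on GRCm38.p6. They lie at chr14:79771263-79771562 (minus strand) for Pcdh8, chr14:84443313-84443612 (plus strand) for Pcdh17 and chr3:49757267-49757566 (minus strand) for Pcdh18. Capitals mark a run of letters that all 3 share.
Pcdh8: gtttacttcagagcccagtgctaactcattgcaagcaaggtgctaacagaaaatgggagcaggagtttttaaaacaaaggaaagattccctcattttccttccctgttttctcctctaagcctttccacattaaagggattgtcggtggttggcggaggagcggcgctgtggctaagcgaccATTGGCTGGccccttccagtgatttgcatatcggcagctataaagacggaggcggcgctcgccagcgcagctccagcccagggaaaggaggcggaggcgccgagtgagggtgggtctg
Pcdh17: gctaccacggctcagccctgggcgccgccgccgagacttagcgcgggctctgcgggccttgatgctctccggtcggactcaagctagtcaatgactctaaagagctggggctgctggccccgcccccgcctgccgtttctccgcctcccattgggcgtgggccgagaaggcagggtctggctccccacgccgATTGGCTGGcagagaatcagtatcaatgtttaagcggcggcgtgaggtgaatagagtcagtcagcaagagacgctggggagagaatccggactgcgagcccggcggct
Pcdh18: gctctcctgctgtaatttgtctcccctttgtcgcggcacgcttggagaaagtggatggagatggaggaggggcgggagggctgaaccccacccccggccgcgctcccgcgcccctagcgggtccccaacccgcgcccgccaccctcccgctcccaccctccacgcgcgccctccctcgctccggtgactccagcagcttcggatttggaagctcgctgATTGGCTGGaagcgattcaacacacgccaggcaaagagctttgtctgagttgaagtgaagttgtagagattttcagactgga

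The run ATTGGCTGG holds an inverted CCAAT box, a common promoter element, and starts at -68, -58 and -32 from the gene start of Pcdh8, Pcdh17 and Pcdh18. It was noticed in these sequences and then counted, on both strands (as ATTGGCTGG or CCAGCCAAT), in 32851 promoter windows of the same length. It was found in 1.05% of them. Of the 20 members that matched the promoter table by symbol, 4 held it. Pcdh8, Pcdh17 and Pcdh18 are 3 of these by construction, since the run was read from them. The count of 4 thus cannot show enrichment. The fourth is Cdh18, whose log2 difference was 0.04. Cdh19 and Cdh22, also lower in every double knockout array, are not among the 4. Whether they matched the promoter table is not given here. The shorter CCAAT or ATTGG was in 37.4% of all windows and in 15 of the 20 members. The run contains it, so Pcdh8, Pcdh17 and Pcdh18 hold it by construction too. Of the motifs for factors that act on cadherin genes or downstream of Wnt, the E-box CANNTG was in 72.3% of windows, in 11 of the 20 members and in 0 of these 3. Its subset CAGGTG or CACCTG, the form bound by Snail and Zeb proteins, was in 20.2% of windows, in 3 of the 20 and in 0 of the 3. The TCF core as CTTTGA or TCAAAG was in 16.0% of windows, in 2 of the 20 and in 0 of the 3. As CTTTGT or ACAAAG it was in 18.7% of windows and in 5 of the 20, Pcdh8 and Pcdh18 among them. Such matches describe letters only.

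Pcdh8, the paraxial protocadherin of presomitic mesoderm and forming somites, was lower in all 3 double knockout arrays. Replicates 1 to 3 of the single knockout read 8.96, 8.99 and 9.24, and those of the double knockout 8.07, 8.92 and 8.66. The groups did not overlap, but replicate 2 lay only just under the lowest single knockout array. The log2 difference was -0.52 (SE 0.22, n = 3 per group, limma adjusted p = 0.872), a level 69.9% as high as in the single knockout. Without double knockout replicate 1 it was -0.28. The other Pcdh8 probe set, which read 8.57, 8.81 and 8.96 against 7.70, 8.54 and 8.43, differed by -0.55 and again did not overlap. Beside it, 3 of 4 paraxial mesoderm markers (Meox1, Tcf15 and Pax3) were lower. The fourth, the presomitic mesoderm marker Tbx6, differed by 0.14, and by -0.20 without double knockout replicate 1. Tbx6 was highest in that array, at 7.88, whereas Pcdh8 was lowest in it. The mean level of the 4 markers was 8.499 to 8.669 in the single knockout and 8.24, 8.36 and 8.41 in the double knockout. Their part in the Pcdh8 result was not tested.

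Pcdh18, another delta protocadherin, had the closest replicates. Its values were 9.15, 9.16 and 9.16 in the single knockout and 8.92, 8.96 and 8.94 in the double knockout. The difference of -0.21 (SE 0.05, adjusted p = 0.872) was many times the spread within either group, whose SDs were 0.007 and 0.022. It was -0.20 without double knockout replicate 1, so it did not rest on that array. Its other 2 probe sets differed by -0.13 and 0.07 with overlapping groups, so the separation was seen on 1 of 3 probe sets.

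Pcdh17, a delta protocadherin of the developing brain, was dim, below the array median on all 6 arrays. It read 5.14, 5.48 and 5.19 in the single knockout and 4.52, 5.01 and 4.89 in the double knockout. The difference was -0.46 (SE 0.15, adjusted p = 0.872) and -0.32 without replicate 1. A second Pcdh17 probe set gave -0.52, but its groups overlapped, and double knockout replicate 1 at 3.10 lay far below the other 5 arrays at 4.44 to 4.82.

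**Figure D2:**
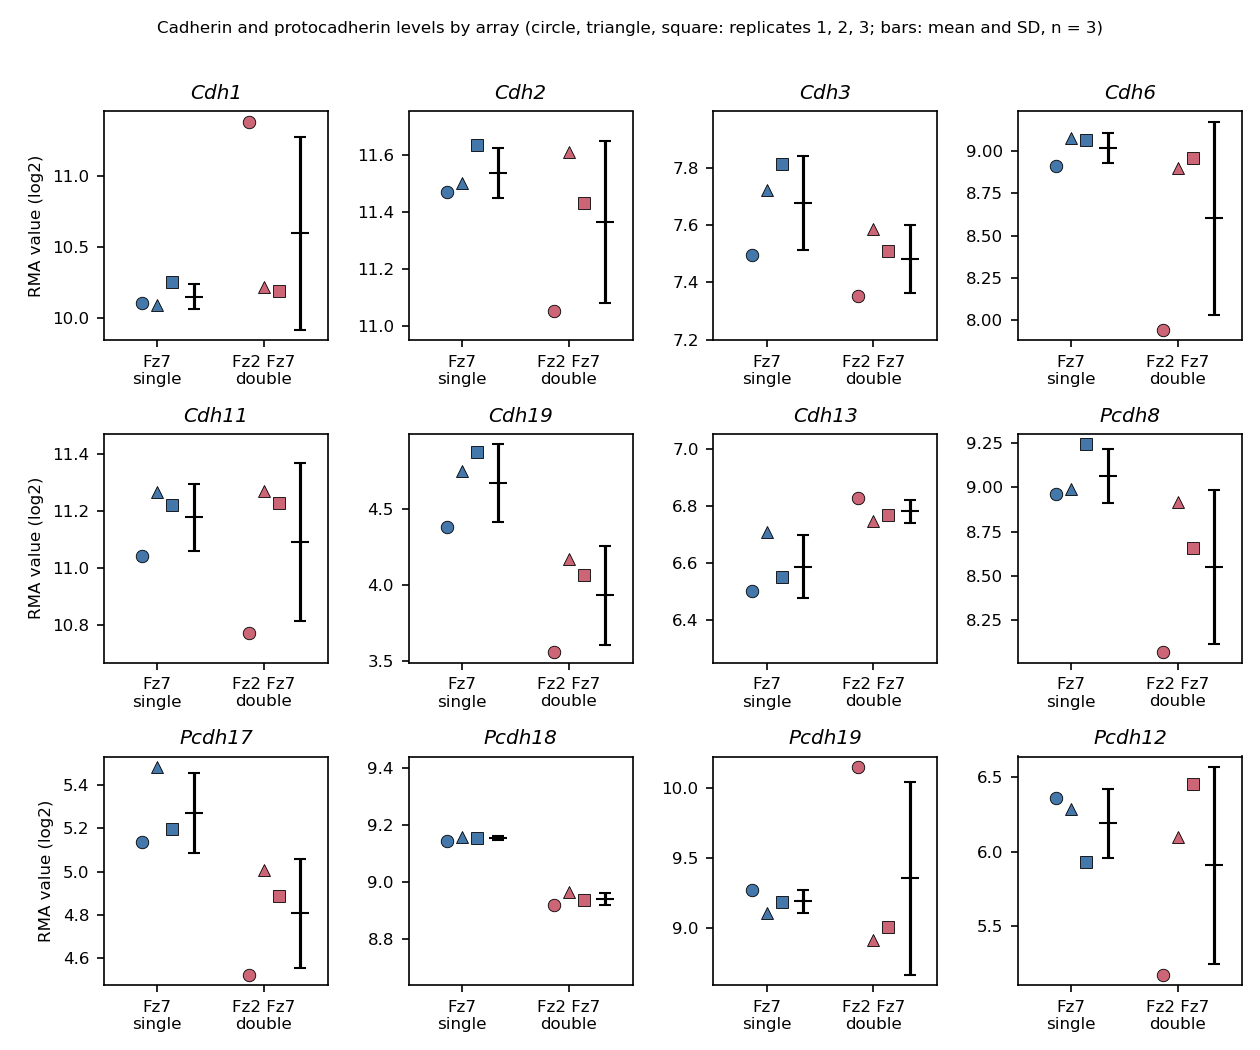
RMA values (log2) of 12 members on each array. Blue is the single and red the double knockout, symbols are replicates 1 to 3, and bars are the mean and SD (n = 3). Double knockout replicate 1 (circle) lies far from the rest for Cdh1, Cdh6, Pcdh19 and Pcdh12, whereas Pcdh18 separates with little spread. Axes differ between genes.

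Pcdh19, which pairs with N-cadherin in adhesion and is the gene of an inherited epilepsy, moved in opposite directions within the double knockout. It read 9.27, 9.10 and 9.19 in the single knockout and 10.15, 8.91 and 9.005 in the double knockout. Replicate 1 was the highest of all 6 arrays and replicates 2 and 3 were the lowest. The difference was 0.17 (SE 0.32, adjusted p = 0.936), and -0.23 without replicate 1 (adjusted p = 0.706). In the other 2 probe sets too, replicate 1 was highest, at 9.81 and 7.13, and replicates 2 and 3 were lowest, with replicate 3 at 8.68 and 5.77. In replicate 1 the presomitic mesoderm marker Tbx6 read 7.88 against 6.75 to 7.16 in the other 5 arrays, and Mesp1, a factor of nascent mesoderm, read 7.61 against 5.84 to 6.15. The other 3 paraxial mesoderm markers, Meox1, Tcf15 and Pax3, were each lowest of the 6 arrays in replicate 1, at 8.37, 9.22 and 7.50. The part of these genes in the Pcdh19 values was not tested.

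The remaining delta protocadherins had overlapping groups. The fourth lower one, Pcdh9, differed by -0.09, and by -0.14 without replicate 1. Pcdh7, which acts in ectoderm and in axon outgrowth, read 7.50, 7.91 and 7.81 against 7.61, 8.13 and 7.97, with overlapping groups. It differed by 0.17 (95% interval -0.23 to 0.56), and by 0.31 without replicate 1, where the groups no longer overlapped. Leaving out single knockout replicate 1 gave 0.0466, and double knockout replicate 2 gave 0.0506. Pcdh10, a delta protocadherin of brain and somites, differed by 0.0012 (95% interval -0.25 to 0.26) on a dim probe set, and 5 further probe sets gave -0.22 to -0.0042. The X-linked Pcdh11x differed by 0.27 on 1 probe set and -0.07 on the other, both dim. Over the 9 delta protocadherins, 4 were lower and 5 higher with a median of 0.0012. Without replicate 1, 7 were lower and 2 higher with a median of -0.14. The counts shifted because the signs of Pcdh1, Pcdh10 and Pcdh19 turned, and the gene at the median changed from Pcdh10 to Pcdh9.

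Pcdh12, an endothelial protocadherin also called VE-cadherin-2, was low in double knockout replicate 1. It read 6.36, 6.29 and 5.93 in the single knockout and 5.17, 6.10 and 6.45 in the double knockout. The difference of -0.28 (SE 0.32, adjusted p = 0.898) became 0.08 without that array. The endothelial markers Cdh5, Pecam1, Kdr and Tie1 were lower for 4 of 4, with a mean level of 6.95 in replicate 1, 8.045 and 8.001 in replicates 2 and 3, and 7.73 to 8.06 in the single knockout. Without replicate 1 all 4 markers differed by 0.04 to 0.12. Their part in the Pcdh12 values was not tested. Both other Pcdh12 probe sets were dim, and they differed by -0.0001 and -0.07. Pcdh15, of the tip links of hair cells, and Pcdh20 were dim and differed by -0.07 and -0.08.

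Clustered protocadherins were mostly dim and split almost evenly by sign, with 12 lower and 11 higher. All 22 beta cluster genes read below the array median of 5.79 to 5.82 on every array, between 2.85 and 5.12. Of these, 11 were lower and 11 higher with a median of 0.01, which was -0.05 without double knockout replicate 1, and differences ran from -0.15 for Pcdhb5 to 0.21 for Pcdhb3. None had groups that did not overlap. Pcdhb3 read 3.45, 3.38 and 3.72 in the single knockout and 3.82, 3.74 and 3.61 in the double knockout, a difference of 0.21 that was 0.16 without replicate 1. Pcdhb1 differed by 0.14, and by 0.08 without replicate 1. The median deviation of the beta genes from the single knockout mean was 0.12 in double knockout replicate 1 and -0.03 and -0.04 in replicates 2 and 3. The beta genes have similar exons, so a probe set may also bind a neighbour. The gamma cluster was represented by Pcdhgc4, at 6.34, 6.06 and 6.11 against 5.91, 6.28 and 6.30, a difference of -0.01 that turned to 0.12 without replicate 1. These values lay above the array median on every array. The alpha cluster, whose probe sets carry several symbols each, gave no member. In all, 6 probe sets with cadherin or protocadherin symbols each named 9 to 14 genes and were not used.

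Among type I classical cadherins, E-cadherin was high in a single double knockout array and the other 4 genes were slightly lower. Cdh1, which encodes E-cadherin of epithelia, read 10.10, 10.09 and 10.25 in the single knockout and 11.38, 10.21 and 10.19 in the double knockout. Replicate 1 stood alone, and replicates 2 and 3 lay within the single knockout range. The difference was 0.45 (SE 0.32, adjusted p = 0.872), and 0.06 (SE 0.07) without replicate 1. Epithelial markers other than Cdh1 (Epcam, Krt8, Krt18 and Cldn6) were higher for 4 of 4, at a mean level of 11.53 in replicate 1, 11.06 and 11.10 in replicates 2 and 3 and 11.04 to 11.05 in the single knockout. Epiblast markers, whose tissue expresses E-cadherin, were higher for 4 of 4, at 7.47, 6.08 and 6.20 against 5.38 to 5.66. In replicate 1, however, Pou5f1 and Nanog were high at 10.77 and 6.91, whereas Tdgf1 at 5.87 was the lowest of the 6 arrays. The part of these markers, and of the visceral endoderm and placental markers given above, in the Cdh1 values was not tested.

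Cdh2, which encodes N-cadherin of neural tube, mesoderm and heart, went the other way in the same array. It read 11.47, 11.50 and 11.63 in the single knockout and 11.05, 11.61 and 11.43 in the double knockout. The difference was -0.17 (95% interval -0.52 to 0.17, adjusted p = 0.877), and -0.02 without replicate 1. A second probe set gave -0.18. Heart markers had a mean level of 8.71 in replicate 1 against 10.48 to 10.73 in the other 5 arrays. Myl2 read 6.405 against 9.83 to 10.88, and Nkx2-5 only 6.97 against 7.19 to 7.49. Neural markers were at 7.42 in replicate 1 against 9.149 to 9.425 in the other 5 arrays. From the mean of those 5, Zic1, Pax6, Sox1 and Sox2 deviated by -4.01, -2.64, -0.39 and -0.36 in replicate 1. Their part in the Cdh2 values was not tested. In replicate 1, Cdh1 lay 1.21 above and Cdh2 0.48 below the mean of the other 5 arrays. Cdh3, or P-cadherin, of placenta and embryonic epithelia, read 7.50, 7.72 and 7.82 against 7.35, 7.59 and 7.51. It differed by -0.20 (SE 0.10) and by -0.13 without replicate 1, and its second, dim probe set by -0.16, with groups that did not overlap. Unlike Cdh1 it was not raised in replicate 1, where it read lowest of the 6 arrays. Cdh4, or R-cadherin, of retina and brain, differed by -0.15 and the muscle cadherin Cdh15 by -0.14, both with overlapping groups.

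Type II classical cadherins were split 5 to 5, with the lowest difference of the whole family in Cdh19. Cdh19, a cadherin of neural crest-derived glial precursors, read 4.38, 4.75 and 4.87 in the single knockout and 3.56, 4.17 and 4.07 in the double knockout. All 3 double knockout arrays lay lower, with replicate 1 the lowest. The difference was -0.74 (SE 0.20, adjusted p = 0.872), a level 60.0% as high as in the single knockout, and -0.55 without replicate 1. Values were below the array median throughout, and Cdh19 had 1 probe set, so no second reading bears on it. Cdh22, a brain cadherin, read 5.51, 5.65 and 5.56 against 5.26, 5.19 and 5.44, a difference of -0.28 (SE 0.08) that was -0.26 without replicate 1.

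Cdh6, of neural plate, crest and kidney, was low mainly in replicate 1. It read 8.91, 9.08 and 9.06 in the single knockout and 7.94, 8.90 and 8.96 in the double knockout, a difference of -0.42 (SE 0.27) that became -0.09 without that array. Its second probe set differed by -0.26. Neural markers had a mean level of 7.42 in replicate 1 and of 9.149 and 9.155 in the other double knockout arrays, against 9.21 to 9.43 in the single knockout, and 3 of 4 were lower. Without replicate 1, 3 of 4 were higher, Sox1, Sox2 and Pax6 by 0.34, 0.11 and 0.16, and Zic1 differed by -1.39. Their part in the Cdh6 values was not tested. Cdh11, of mesenchyme, read 11.04, 11.27 and 11.22 against 10.77, 11.27 and 11.23. Its difference was -0.09 (95% interval -0.44 to 0.26), and 0.07 without replicate 1.

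Higher type II members read near or below the array median. Cdh10, a brain cadherin, read 5.32, 5.07 and 5.19 in the single knockout and 6.27, 5.26 and 5.78 in the double knockout, with replicate 2 inside the single knockout range. It differed by 0.57 (SE 0.24, adjusted p = 0.872), and by 0.32 without replicate 1. Its other 3 probe sets gave 0.20, -0.09 and 0.13. Cdh9, also of brain, differed by 0.25 at values of 3.10 to 3.71.

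Cdh13 was the only member higher in every double knockout array. It encodes T-cadherin, which is held by a lipid anchor and has no cytoplasmic tail. It read 6.501, 6.71 and 6.55 in the single knockout and 6.83, 6.75 and 6.77 in the double knockout. The difference was 0.19 (SE 0.07, adjusted p = 0.872), and 0.17 without replicate 1. Of its 4 probe sets, 3 lay higher in all double knockout arrays, with differences of 0.19, 0.27 and 0.29. The fourth, the dimmest, differed by -0.0029. The other atypical cadherins Cdh16, Cdh17, Cdh23 and Cdh26 differed by -0.09 to 0.08.

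**Figure D3:**
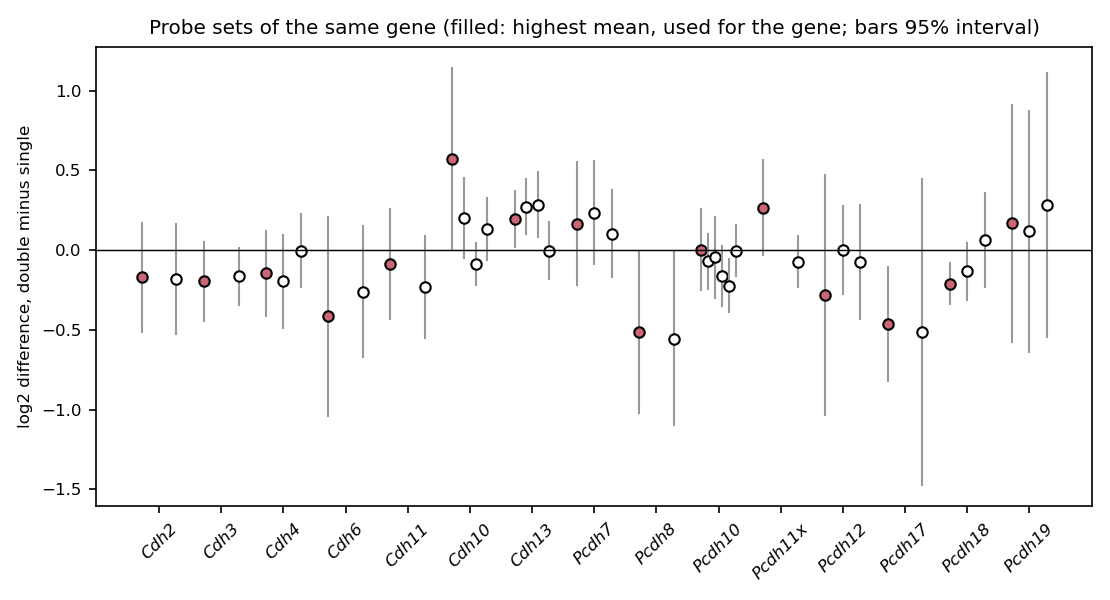
Log2 difference (double minus single knockout) of every probe set of 15 members that have more than 1, with 95% intervals. Filled points are the probe set used for the gene, and the rest follow from the highest mean on the left to the lowest on the right. Probe sets of Pcdh8, Pcdh17, Cdh2 and Cdh3 lie on 1 side of 0, whereas those of Cdh10 and Pcdh18 lie on both.

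Probe sets of a gene pointed the same way for 14 of the 26 members with more than 1, and both ways for 12. The members with both signs were mostly dim, but included Cdh10, Cdh13 and Pcdh18.

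Double knockout replicate 1 was the array in which members departed most. In it 8 of 55, or 14.5%, lay more than 0.5 log2 units from the mean of the other 5 arrays, against 8.2% of all genes. Cdh1, Pcdh19 and Cdh10 lay above, and Pcdh12, Cdh6, Cdh19, Pcdh8 and Pcdh17 below. In each of the other arrays 0 to 2 members did so. The SD of the double knockout exceeded that of the single knockout for 39 members, or 70.9%, against 63.3% of all genes. Without this array, 8 of the 55 members lay lower than every single knockout array, against 12.3% of all genes, and 3 of the 55 lay higher, against 9.99%. The 8 were Cdh19, Cdh22, Pcdh8, Pcdh17, Pcdh18, Pcdh19, Cdh16 and Pcdhb14, and the 3 were Cdh13, Pcdh7 and Pcdhb17.

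**Figure D4:**
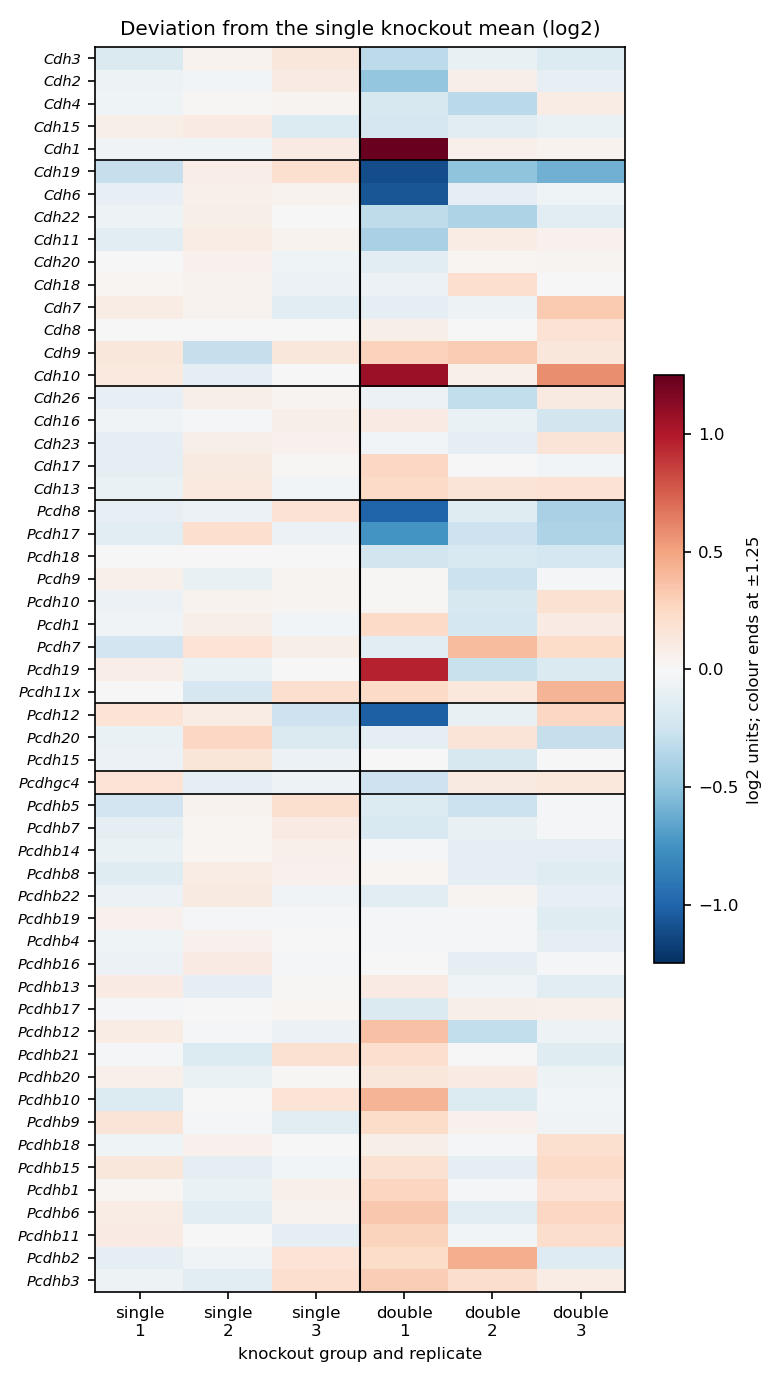
Deviation of each member from its single knockout mean (log2 units, colour) on each of the 6 arrays, with subfamilies separated by lines. The strongest colours are in double knockout replicate 1, for Cdh1, Cdh10 and Pcdh19 (higher) and Cdh19, Cdh6, Pcdh8 and Pcdh12 (lower). Cdh19, Pcdh8, Pcdh17 and Pcdh18 are lower on all 3 double knockout arrays.

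Partners of the cadherins did not pass the test either. Of 17 measured genes for catenins and other adherens junction proteins, 0 passed, 6 were higher and 11 lower, with a median of -0.04. Beta-catenin mRNA (Ctnnb1), named beyond the rule as the shared Wnt effector, read 13.69, 13.71 and 13.70 in the single knockout and 13.69, 13.70 and 13.71 in the double knockout. The 95% interval of its difference was -0.12 to 0.12. Ctnnd2, a delta-catenin of neurons, differed by -0.67 (SE 0.28) and was lower in all 3 double knockout arrays. Ctnna3, an alpha-catenin, differed by -0.24, and the junction scaffold gene Tjp1 by -0.08. Without replicate 1 these 3 differed by -0.33, -0.11 and -0.04. Without replicate 1, 10 of the 17 were higher and 7 lower.

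Of 8 large cadherins, 0 passed. Celsr3, a seven-pass cadherin of the planar polarity pathway, read 6.69, 6.62 and 6.504 against 6.78, 6.83 and 7.03 and differed by 0.27 (SE 0.09). Dchs1 and Fat4, a ligand and receptor pair of giant cadherins, differed by -0.37 and -0.56, and Fat4 read 6.73 in replicate 1 against 8.07 to 8.31 elsewhere. Without replicate 1, Celsr3 differed by 0.33, Dchs1 by -0.15 and Fat4 by -0.10. Of 6 desmosomal cadherins 0 passed, and Dsg1a, Dsc1 and Dsc3, all dim, differed by -0.13, 0.08 and 0.17. The brighter Dsg2 and Dsc2, named beyond the rule, differed by 0.22 and 0.09, and by -0.09 and -0.05 without replicate 1. Dsg2 read 10.67 in replicate 1 against 9.75 to 9.91 in the other 5 arrays. Transcription factors that repress or act beside cadherin genes numbered 11, with 5 higher, 6 lower and 0 past the threshold. Tcf3, which encodes the E-box factor E2A, differed by -0.14, Ripply2, a repressor of the segmenting somite, by -0.49, and Mesp1 by 0.58. Without replicate 1 these were -0.05, -0.83 and 0.04. Snai1 and Snai2, repressors of Cdh1 that are also named beyond the rule, both differed by 0.03. Likewise beyond the rule, Zeb1, Twist1 and Twist2 differed by -0.25, -0.15 and -0.14, and Zeb2 and Snai3 by 0.03 and 0.02. Without replicate 1, Zeb1, Twist1 and Twist2 differed by -0.02, -0.02 and 0.29. Zeb1 read 9.34 in replicate 1 against 10.00 to 10.13 in the other 5 arrays. The part of these genes in the Cdh1 values was not tested. Of 6 genes for cadherin processing 0 passed, and the protease gene Adam10, which cleaves E-cadherin and N-cadherin, differed by -0.14 (SE 0.05) with groups that did not overlap. Numb and Psen2 differed by 0.11 and 0.08.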

How the data were processed

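RNA from 6 whole-embryo samples was measured on single-colour Affymetrix arrays. Per the labels' protocols, extraction used Trizol followed by RNeasy, with biotin as the label. For 45101 probe sets the authors deposited expression on the log2 scale, summarised by RMA according to the submitters' processing notes, which name no version. The number of arrays limits the precision.

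Groups and replicate numbers came from the titles. Genes were named through the platform annotation, and all 55 members matched a RefSeq symbol. All 18193 genes with a single-symbol probe set were fitted in limma 3.58.1 under R 4.3.3 by lmFit and eBayes. Tests were two-sided, p-values were adjusted by Benjamini-Hochberg, and the threshold was 0.05. Intervals are 95% intervals of that fit. The fit was tested on simulated data with the spread of the single knockout arrays and no array that stood apart. That test does not cover data with an array like double knockout replicate 1.

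The members and lists were chosen with earlier results of these data known. Members were named for known roles, as the 6 smallest unadjusted p per direction, as the largest difference of a subfamily, or as the 4 farthest in double knockout replicate 1, and partners as the 3 smallest unadjusted p per list. Others are named to account for a count. Alternatives were another 13 settings of the fit and a threshold of 0.1. No explanation was tested.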

Additional observations from a re-analysis of the deposited data

How the results depend on the processing

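No member passed under any of the 13 alternatives or at a threshold of 0.1, and the smallest adjusted p of a named member was 0.521, for Cdh19 with the replicate number as a block. Among all genes too, 0 passed with the mean of probe sets, without single knockout replicate 1, 2 or 3, or without double knockout replicate 3. Under the other alternatives Fzd2 alone passed, so these settings could call few genes of any kind. The labels do not say whether replicate numbers pair the arrays. Deviations of same-numbered arrays correlated at 0.094, -0.037 and -0.130, which cannot decide it with 3 arrays per group. With this replicate block 8 members had an unadjusted p under 0.05. With dim genes left out, 10 members remained, 7 lower and 3 higher, of which 2 had groups that did not overlap and 1 an unadjusted p under 0.05. The cadherin median was then -0.16 and that of type II cadherins -0.25, over 2 genes, and the beta cluster had no value. Leaving out 1 array at a time gave 7 to 17 members with non-overlapping groups, since fewer arrays separate more easily, and 4 to 9 with an unadjusted p under 0.05. Shares of all genes for these 2 measures were taken only in the main fit and without double knockout replicate 1. The other counts have no such background and are not read as a result about the members. With 1 array left out, medians ran from -0.201 to 0.0073 for solitary protocadherins outside the delta group and from -0.144 to 0.0506 for the delta group. Of 22 named genes, 17 kept their sign under every alternative that gave them a value. Pcdh10 turned to -0.0836 with the mean of probe sets, -0.0007 with a second quantile normalization and -0.0164 with array weights. Array weights also turned Cdh11 (0.0126), Pcdh12 (0.0106), Pcdh19 (-0.11) and Pcdhgc4 (0.104). The cause was not tested. Leave-one-out ranges were -0.177 to 0.0728 for Cdh11, -0.0937 to 0.103 for Pcdh10, -0.554 to 0.0849 for Pcdh12, -0.23 to 0.388 for Pcdh19 and -0.0755 to 0.121 for Pcdhgc4.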
